A study of Homo sapiens with 15 samples.

Results

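Immunoglobulin genes, JCHAIN and MZB1 were examined in 2 myeloma cell lines grown with and without stromal cells. Members were the genes whose symbol began with IGH, IGK or IGL followed by another capital letter, without IGHMBP2 and IGLON5, plus JCHAIN and MZB1. This gave 300 of the 20468 genes in each expression table. Another 18 immunoglobulin genes carried symbols in lower or mixed case and were found by gene ID. They include the constant genes IGKC, IGLC1, IGLC2, IGLC3, IGHM, IGHD, IGHE and IGHG1 and the 5 kappa J segments, and they are counted apart from the 300 in what follows.

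The study asked how contact with bone marrow stroma and soluble signals from it change gene expression of multiple myeloma (MM) cells. Each of MM.1S and RPMI8226 is 1 established line of human MM, and HS5, also an established human line, served as stroma. MM cells were cultured alone (MONO), in the upper chamber of a transwell whose lower chamber held HS5 cells (TSW), or in that lower chamber in contact with HS5 cells (CO). After 48 h, CD90- CD38+ cells were sorted and their RNA was sequenced. The methods of the study mention a small remnant of HS5 cells in the sorted CO samples. MM.1S had 3 libraries per condition and RPMI8226 had 2, 15 in all. Nothing in the labels says that libraries of a condition came from separate cultures, so p-values measure only the spread between these samples, which may be technical.

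An antibody is built from heavy chains and light chains, and the light chain is either kappa or lambda. Each chain gene is assembled from V, J and, in heavy chains, D segments ahead of a constant gene, and a plasma cell clone usually transcribes 1 productive heavy and 1 productive light chain gene at a very high rate. JCHAIN encodes the small protein that links antibodies of class A and M into polymers, and MZB1 encodes a chaperone of the endoplasmic reticulum that helps to assemble and secrete antibodies.

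Expression was given as RPKM, a read count scaled to transcript length and library depth. The depth ranged from 9008977 to 19050772 reads on genes per library. A single read on 2 kb of transcript thus equaled 0.0262 RPKM in the deepest library and 0.0555 in the shallowest. Each line was fitted on its own, so levels set beside each other across the lines are a description without a test.

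Before the results, 3 libraries that stood apart from the others have to be named. They were the second MONO library of MM.1S and both TSW libraries of RPMI8226. The processed pseudogene RPS14P3 had an RPKM of 84.2 in that MM.1S library and of 94.8 and 93.6 in the RPMI8226 pair, against 2.20 to 6.44 in the remaining libraries. NACA2, an intronless copy of a ribosome-associated gene, stood at 62.0, 65.8 and 64.3 against 5.73 to 13.98. The mitochondrial tRNA gene TRNN showed the opposite order, with 1.44, 2.22 and 1.53 in the 3 libraries and 82.3 to 586.9 elsewhere. All TSW libraries of RPMI8226 share this feature, so in that line the culture in the transwell and the feature cannot be told apart in any comparison that includes TSW. For MM.1S, calls that differ without the second MONO library are named.

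Most members were listed at 0 at this depth. A 0 does not show that a gene is silent, because its reads may be counted on a gene that is nearly the same. The constant gene IGLC1, found by gene ID, was at 0 in both lines. All 320 of its bases lie in exons of IGLL5, which had a mean RPKM of 1849 in MM.1S. In MM.1S, 229 of the 300 members were listed at 0 in all 9 libraries, 71 had a value above 0 in at least 1 library, and 31 had a mean RPKM of at least 1, the level required for testing. In RPMI8226, 254 were at 0 in all 6 libraries, 46 were above 0, and 18 reached the level for testing. Of the 18 genes found by gene ID, 3 reached it in MM.1S (IGHG1, IGLC2 and IGLC3) and 8 in RPMI8226 (the 5 kappa J segments, IGKC, IGLC2 and IGLC3).

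Heavy V genes had reads in only 1 of the lines. MM.1S had reads on 14 of 119 heavy V members, and 4 of them were tested, whereas all 119 were at 0 in every RPMI8226 library. A count of 0 still allows a share of up to 2.40e-05% of reads in the shallowest RPMI8226 library, a limit that covers counting error only. All 27 heavy D members were at 0 in both lines. Among kappa V members, 6 of 61 had a value above 0 in MM.1S and none was tested, and 9 of 61 were above 0 in RPMI8226 with 3 tested. Lambda V members were the largest class with signal, with 36 of 70 above 0 and 15 tested in MM.1S, and 23 above 0 and 8 tested in RPMI8226.

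Lambda light chain genes ranked among the most abundant transcripts of both lines. In MM.1S, IGLV2-14 was the 5th gene of the whole table by mean RPKM (6388), IGLV2-23 the 14th (2886), JCHAIN the 17th (2604) and IGLL5 the 26th (1849). In RPMI8226 the lambda constant gene IGLC2 led the whole table at 10560.0, followed among immunoglobulin genes by IGLV2-14 at rank 3 (5127), IGLV2-23 at rank 14 (2537) and IGLV2-34 at rank 15 (2406). JCHAIN held rank 21 there (2252) and MZB1 rank 69 (845), against rank 110 for MZB1 in MM.1S (489). These ranks use means over all libraries of a line. The rank of IGLV2-23 in RPMI8226 rested on the TSW libraries that stood apart. Its means were 910 in MONO, 6007 in TSW and 693 in CO, against 3150, 1002 and 3067 for IGLV2-34. In MM.1S, IGLV2-23 had a higher mean than JCHAIN in MONO only (4838 against 3753).

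**Figure D1:**
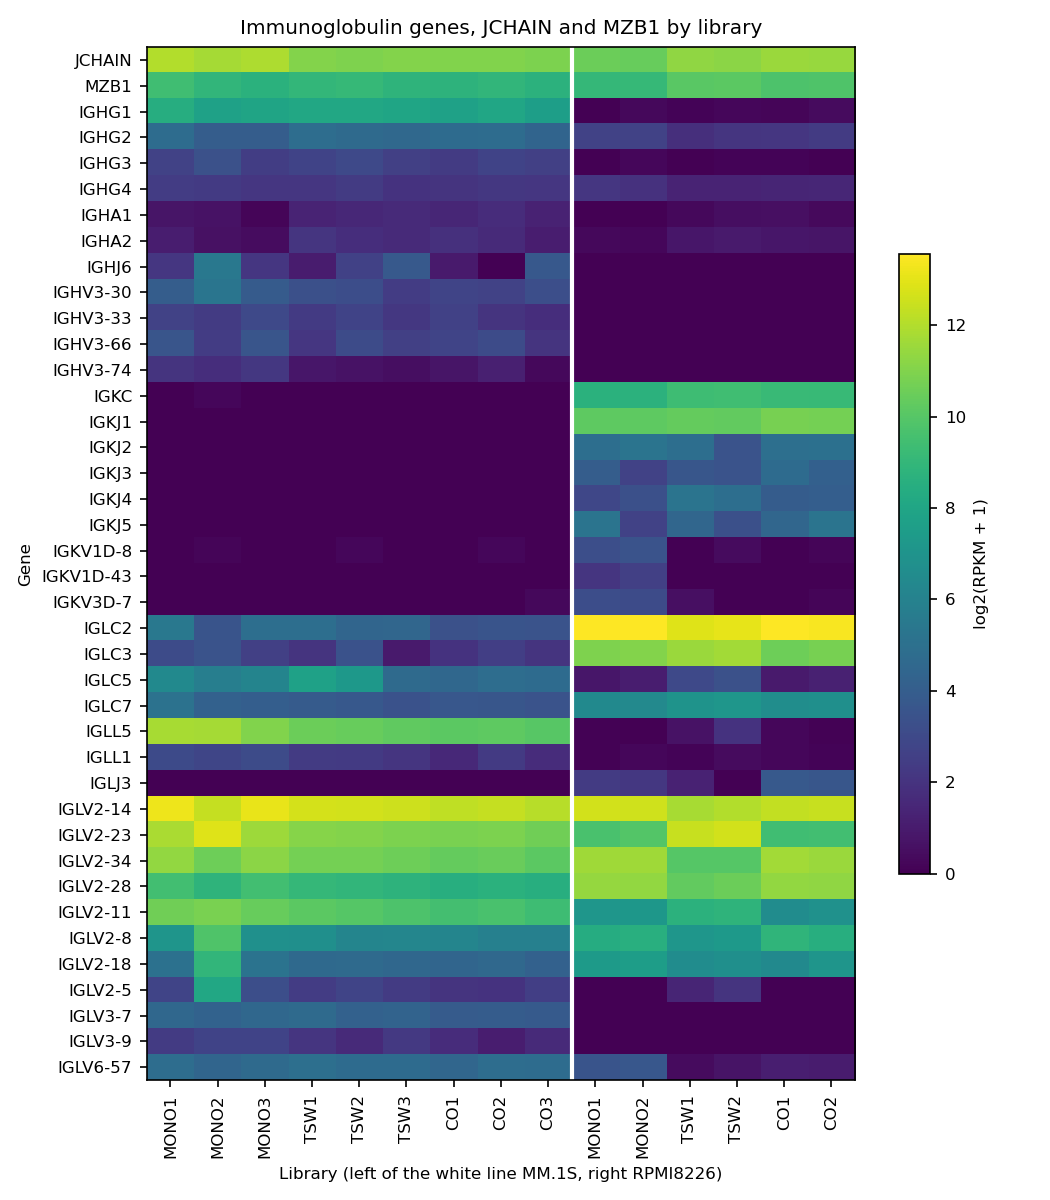
Heat map of log2(RPKM + 1) for immunoglobulin genes, JCHAIN and MZB1 (vertical axis) in the 15 libraries (horizontal axis, MM.1S left and RPMI8226 right of the white line), where the darkest color stands for 0. IGLV2-14, JCHAIN and MZB1 were bright in both lines, the heavy constant gene IGHG1 mainly in MM.1S, and IGKC and IGKJ1 in RPMI8226.

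Many of these genes are so alike that reads from one can be counted on another. Of the 300 members, 293 had a sequence in the reference annotation, and 79 had a near-identical copy among the immunoglobulin genes, defined as at least 95% identity over at least 80% of the shorter exons. The same held for 4 of the 18 genes found by gene ID. Values of such members are uncertain because reads may be divided between the copies. Several abundant members of the IGLV2 family had such copies. IGLV2-14 and IGLV2-23 were 96.5% identical, IGLV2-14 and IGLV2-8 95.7%, IGLV2-8 and IGLV2-11 96.6%, and IGLV2-14 and IGLV2-18 94.6%, just under the limit.

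The coding stretches of these 5 segments show how few bases separate genes whose levels are compared here. They lie on the plus strand of GRCh38 (hg38) in the V exons of chromosome 22, at chr22:22758926-22759045 for IGLV2-14, chr22:22698136-22698255 for IGLV2-23, chr22:22792718-22792837 for IGLV2-11, chr22:22823004-22823123 for IGLV2-8 and chr22:22734804-22734923 for IGLV2-18. Capitals in IGLV2-14 mark each position where any of the others differs, and capitals in the others mark bases that differ from IGLV2-14.
IGLV2-14: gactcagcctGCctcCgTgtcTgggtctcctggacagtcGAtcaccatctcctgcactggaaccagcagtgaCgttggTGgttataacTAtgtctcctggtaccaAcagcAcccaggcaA
IGLV2-23: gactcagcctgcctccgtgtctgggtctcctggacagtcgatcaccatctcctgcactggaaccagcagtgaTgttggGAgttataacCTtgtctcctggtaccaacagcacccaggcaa
IGLV2-11: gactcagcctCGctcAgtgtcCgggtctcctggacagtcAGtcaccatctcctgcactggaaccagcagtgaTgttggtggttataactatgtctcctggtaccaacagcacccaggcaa
IGLV2-8: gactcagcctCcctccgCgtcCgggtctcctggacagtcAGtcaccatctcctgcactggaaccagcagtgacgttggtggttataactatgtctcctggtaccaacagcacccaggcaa
IGLV2-18: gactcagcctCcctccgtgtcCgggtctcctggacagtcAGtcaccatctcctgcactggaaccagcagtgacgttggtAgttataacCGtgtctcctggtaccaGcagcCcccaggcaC
Over the aligned V exons, IGLV2-23 differed from IGLV2-14 at 11 of 294 bases, IGLV2-8 at 16 of 308, IGLV2-18 at 18 of 308 and IGLV2-11 at 21 of 312. These are reference sequences, and somatic mutations of a rearranged gene in either line are not shown by them.

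The share of reads taken by all immunoglobulin genes, the 18 included, fell into separate ranges in MM.1S. It was 0.993% ± 0.131 (SD, n = 3) in MONO, 0.595% ± 0.0478 (n = 3) in TSW and 0.472% ± 0.0411 (n = 3) in CO, and the libraries of the 3 conditions did not overlap. In RPMI8226 it was 0.954% ± 0.0114 (SD, n = 2) in MONO, 0.847% ± 0.0749 (n = 2) in TSW and 0.884% ± 0.0163 (n = 2) in CO. Both MONO libraries of RPMI8226 lay above its other libraries, while TSW and CO overlapped. These shares were not tested. In bulk RNA, fewer cells that transcribe a gene and less RNA of the gene per cell cannot be told apart.

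Within the immunoglobulin reads, lambda genes dominated. In MM.1S, lambda reads made up 99.995% to 100% of light chain reads in every library. In RPMI8226 their share was 98.0% in both MONO libraries, 96.6% and 97.0% in TSW and 97.1% and 97.2% in CO, so the kappa share was lowest in MONO. Heavy chain reads were 2.56% to 3.64% of immunoglobulin reads in MONO of MM.1S, 5.14% to 5.44% in TSW and 5.33% to 5.91% in CO. As a share of all reads their means were 0.0314%, 0.0316% and 0.0265%. In RPMI8226, heavy chain reads were 0.0687% to 0.105% of immunoglobulin reads, which was 101 to 143 reads per library.

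**Figure D2:**
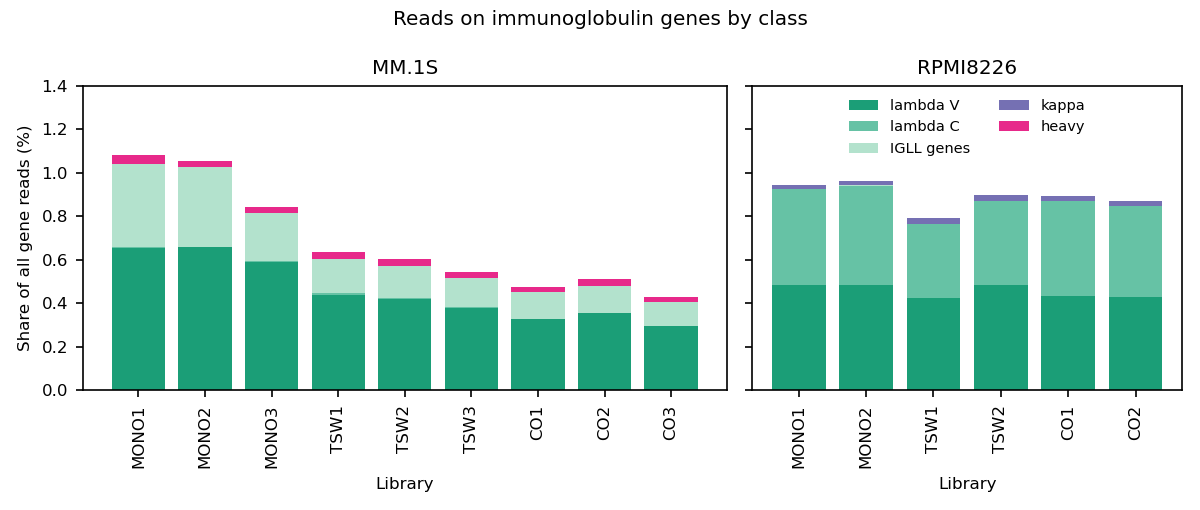
Stacked bars of the percent of all gene reads that fell on lambda V, lambda constant, IGLL, kappa and heavy chain genes in each library. All MONO libraries of MM.1S stood above its TSW and CO libraries, and lambda constant genes formed a large part of the bar only in RPMI8226 among these 2 lines.

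Tests were made with limma on log2(RPKM + 1) within each line, and calls required a fold change above 1.5 together with an adjusted p (Benjamini-Hochberg) below 0.05. All fold changes in this account are on that log2(RPKM + 1) scale, which understates changes of genes with low values. In MM.1S TSW against MONO, 2 of 31 tested members were called higher and 9 lower, where 6.48% of all 10153 tested genes were called higher and 4.16% lower. CO against MONO gave 2 higher and 12 lower of 31, with 7.13% and 4.65% of all genes. The median log2 fold change of the tested members was -0.38 in TSW and -0.75 in CO against 0.01 over all genes in both. Without the second MONO library the calls were 2 higher and 9 lower in TSW, and 2 higher and 17 lower in CO, of 30 tested. The members called only without it were IGLV2-34 and IGHV3-66 in TSW, and IGLV2-5, IGLV2-14, IGLV2-18, IGLV3-7 and IGHV3-66 in CO. Without the third TSW library, TSW against MONO had 3 higher and 4 lower of 30. Limma called 0 of 31 members in CO against TSW, where 0.374% of all genes were called higher and 0.0394% lower. An unadjusted p under 0.05 by limma was found for 4 members (IGLV2-11, IGLV3-7, IGLV3-9 and IGLC5), beside 450 of all 10153 genes. The median of all 31 was -0.24. Among the 3 tested genes found by gene ID, IGLC2 was called lower in CO against MONO and nothing else was called. The comparisons of a line share libraries and are not independent of each other.

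In RPMI8226 TSW against MONO, all 18 tested members were called, 6 higher and 12 lower, where 14.5% of the 10319 tested genes were called higher and 17.9% lower. CO against MONO gave 3 higher and 6 lower of 18, against 16.4% and 22.9% of all genes, shares of the same order as those of the members. CO against TSW gave 4 higher and 3 lower of 18, where 1.9% of all genes were called higher and 2.39% lower. Median log2 fold changes of the tested members were -0.76, -0.32 and 0.07 in the 3 comparisons, and those of all genes -0.08, -0.09 and -0.04. Of the 8 tested genes found by gene ID, 3 were called higher and 1 lower in TSW, 2 higher in CO, and 2 lower in CO than in TSW. Both comparisons with TSW rest on the libraries that stood apart. With no filter on the mean RPKM, 46 members were tested in this line, and 11 were called higher and 14 lower in TSW and 3 higher and 9 lower in CO against MONO, where 3566 and 4355 of all 16784 genes were called in the same fits.

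Calls were made among members with and without a near-identical copy, and the difference was not tested. In MM.1S, 12 tested members had such a copy, of which 6 were called lower in TSW and 7 in CO, while the 19 without a copy gave 2 higher and 3 lower in TSW and 2 higher and 5 lower in CO. RPMI8226 had 10 tested members with a copy, 3 higher and 7 lower in TSW and 1 higher and 3 lower in CO, and 8 without one, 3 higher and 5 lower in TSW and 2 higher and 3 lower in CO. Of all tested genes in MM.1S, 6.48% (TSW) and 7.13% (CO) were called higher and 4.16% and 4.65% lower. In RPMI8226 these shares were 14.5% and 16.4% higher and 17.9% and 22.9% lower. The CO counts of RPMI8226 were of the same order as its shares.

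**Figure D3:**
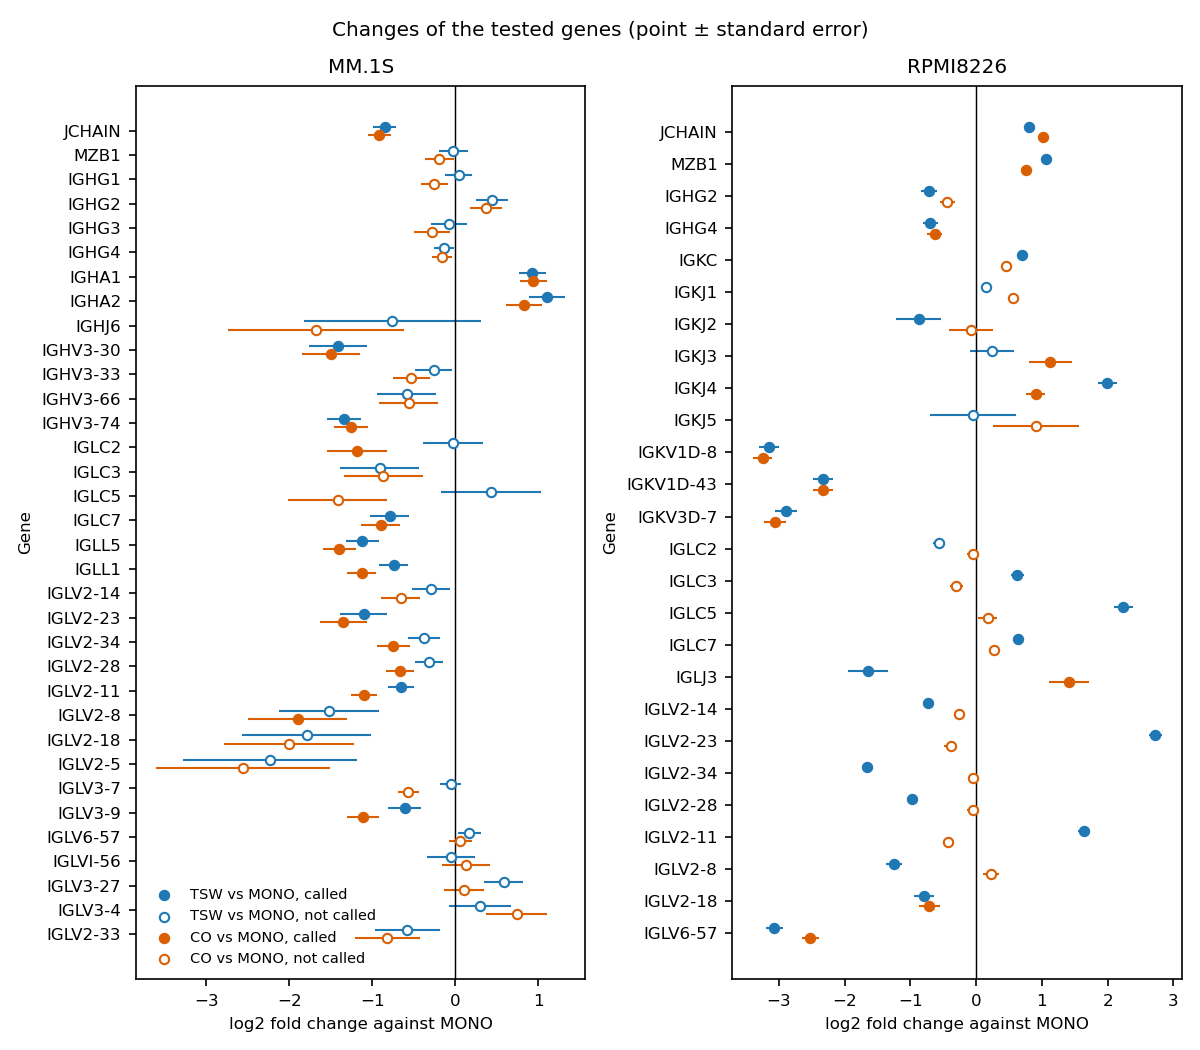
Log2 fold changes of TSW and CO against MONO on the log2(RPKM + 1) scale with standard errors for each tested gene, MM.1S left and RPMI8226 right, with filled points for called genes and open points for the others. JCHAIN lay left of 0 in MM.1S (-0.85 and -0.91) and right of 0 in RPMI8226 (0.80 and 1.02).

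Heavy chain constant genes define the antibody class. IGHG1, the constant gene of IgG1 and the highest heavy constant gene of MM.1S, had RPKM values of 343.5, 219.8 and 242.1 in MONO, 280.5, 280.0 and 253.2 in TSW and 220.0, 256.0 and 192.1 in CO. The 3 conditions overlapped, and limma gave log2 fold changes of 0.04 (SE 0.164, adjusted p = 0.876) in TSW and -0.25 (SE 0.164, adjusted p = 0.257) in CO after Benjamini-Hochberg adjustment. Without the second MONO library the IGHG1 values were -0.09 and -0.38, so the sign in TSW turned, and neither was called. The same gene had 0 to 6 reads per library in RPMI8226. Related constant genes were much lower in MM.1S, with mean RPKM values of 22.7 for IGHG2, 5.72 for IGHG3 and 3.61 for IGHG4. IGHG2 and IGHG4 are 95.1% identical and IGHG1 and IGHG2 94.8%, so part of the reads on IGHG2 could stem from IGHG1.

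IGHA1 and IGHA2, the constant genes of class A, rose in MM.1S from a very low level. IGHA1 had RPKM values of 0.732, 0.594 and 0.142 in MONO, 1.59, 1.80 and 2.01 in TSW and 1.76, 2.33 and 1.43 in CO. IGHA2 stood at 1.09, 0.515 and 0.370 in MONO, 3.23, 2.39 and 2.02 in TSW and 2.74, 2.05 and 1.14 in CO. Every TSW and CO library was above every MONO library for both genes, and the values rested on 2 to 12 reads in MONO and 16 to 47 in the other conditions. The log2 fold changes by limma were 0.93 (SE 0.164, Benjamini-Hochberg adjusted p = 0.00210) in TSW and 0.94 (SE 0.164, adjusted p = 0.00191) in CO for IGHA1. For IGHA2 they were 1.11 (SE 0.217, adjusted p = 0.00394) and 0.83 (SE 0.217, adjusted p = 0.0157), and the IGHA2 call in CO was lost without the first CO library (0.65, limma adjusted p = 0.0713 by Benjamini-Hochberg). Both genes reached the level for testing through TSW and CO. With no filter on the mean RPKM the limma calls remained, with adjusted p-values of 0.00796 and 0.00601 for IGHA1 and 0.0151 and 0.0381 for IGHA2. The pair is 92.6% identical.

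The 4 tested heavy V segments of MM.1S belong to the VH3 family. IGHV3-30 had RPKM values of 15.1, 37.8 and 13.7 in MONO, 8.94, 8.20 and 4.32 in TSW and 5.81, 5.35 and 8.40 in CO, with all MONO libraries above the rest. It fell by 1.41 on the log2 scale in TSW (limma, Benjamini-Hochberg adjusted p = 0.0128), its CO value was -1.497 (adjusted p = 0.00898), and without the second MONO library the values were -0.97 and -1.05, still called. Without the third TSW library the TSW value was -1.13 with an adjusted p of 0.0579 (limma). The segment is 98.9% identical to IGHV3-33, which was not called. IGHV3-74 fell by 1.34 in TSW and by 1.26 in CO (limma, Benjamini-Hochberg adjusted p = 0.000907 and 0.00132), from 10, 16 and 17 reads in MONO to 1 to 7 reads elsewhere. It reached the level for testing through its MONO values, and with no filter it was called as well (limma adjusted p = 0.00494 and 0.00522). IGHV3-66 was called only without the second MONO library (-0.97 and -0.95), and it is 98.3% identical to IGHV3-53. The joining segment IGHJ6 was not called, and IGHJ6 had 52 reads in the second MONO library against 0 to 11 in the others.

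RPMI8226 showed only traces of heavy chain RNA, and 2 heavy constant genes were tested. IGHG2 had RPKM values of 5.48 and 5.44 in MONO, 2.59 and 3.30 in TSW and 3.44 and 4.13 in CO. IGHG4 stood at 3.50 and 2.82 in MONO, 1.54 and 1.59 in TSW and 1.62 and 1.73 in CO. MONO libraries were above all others for both genes, at 41 to 79 reads. IGHG4 was called in TSW (-0.69, limma with Benjamini-Hochberg adjusted p = 0.000274) and in CO (-0.63, adjusted p = 0.000441), and IGHG2 in TSW (-0.72, adjusted p = 0.000317). IGHA2, below the level for testing, went the other way, with 3 reads in each MONO library and 13 to 18 elsewhere, and IGHA1 had 0 reads in MONO and 4 to 8 elsewhere. Both IGHG4 calls ended without the first MONO library, where the values of -0.57 and -0.51 missed the fold change of 1.5.

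Kappa genes gave at most 6 reads per library over all 68 kappa genes in MM.1S, so the kappa results concern RPMI8226. There IGKC, the single kappa constant gene, had RPKM values of 408.3 and 421.1 in MONO, 661.8 and 680.2 in TSW and 583.3 and 553.9 in CO. The conditions did not overlap, and IGKC rose in TSW by a log2 fold change of 0.69 (SE 0.0636, limma with Benjamini-Hochberg adjusted p = 5.42e-06). In CO its log2 fold change was 0.45 (SE 0.0636, limma adjusted p = 9.06e-05), below the required fold change. Under quantile normalization the TSW value was 0.52 and missed that threshold too.

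The joining segment IGKJ1 carried most J reads of the kappa locus. Its sequence is shown with that of IGKJ4 because a segment this short gets its RPKM from few bases. Both lie on the minus strand of chromosome 2, at chr2:88861886-88861923 and chr2:88860886-88860922 of GRCh38, and no base is marked.
IGKJ1: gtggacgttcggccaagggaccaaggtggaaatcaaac
IGKJ4: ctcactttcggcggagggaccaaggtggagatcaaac
IGKJ1 and IGKJ4 differ at 7 of 37 aligned bases. IGKJ1, 38 bases long, had RPKM values of 1183 and 1161 in MONO, 1333 and 1259 in TSW and 1772 and 1674 in CO, from 561 to 1195 reads. CO libraries were highest and MONO libraries lowest without overlap. IGKJ1 was not called, with log2 fold changes of 0.14 in TSW and 0.56 in CO (limma, Benjamini-Hochberg adjusted p = 0.0794 and 3.04e-05), the second short of the fold change of 1.5. IGKJ2 to IGKJ5 rested on 3 to 26 reads per library. Among them IGKJ4 was called higher in TSW (1.995) and CO (0.91), IGKJ3 higher in CO (1.13) and IGKJ2 lower in TSW (-0.87). The IGKJ3 value was 0.47 without the second MONO library and 0.83 without the first CO library, none of them called. IGKJ2 values of TSW and MONO overlapped, and its call ended without the second MONO (-0.71) or second TSW library (-0.15) and without the first or second CO library (limma adjusted p = 0.0771 and 0.0614).

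A group of kappa V segments fell in RPMI8226 from a low level to near 0. IGKV1D-8 had RPKM values of 8.45 and 10.01 in MONO, 0 and 0.318 in TSW and 0 and 0.152 in CO, which was 37 and 52 reads in MONO and at most 2 in the other libraries. IGKV3D-7 had 37 and 40 reads in MONO and at most 3 elsewhere. IGKV1D-43 had RPKM values of 3.20 and 5.00 in MONO and was listed at 0 in all TSW and CO libraries. Against a floor of 3 reads per library, IGKV1D-43 was at least 8.74-fold lower in TSW and at least 8.38-fold lower in CO. The fitted log2 fold changes in TSW and CO were -3.15 and -3.25 for IGKV1D-8, -2.89 and -3.06 for IGKV3D-7 and -2.33 in both for IGKV1D-43, all called by limma, and they depend on the added 1 RPKM and are no bounds. The 3 segments reached the level for testing through their MONO values, so that all of them were lower elsewhere is no independent test. With no filter each of IGKV1D-8, IGKV3D-7 and IGKV1D-43 was called as well. IGKV1D-8 is 97.1% identical to IGKV1-8 and IGKV3D-7 97.1% to IGKV3-7. These segments moved opposite to IGKC within the same libraries, and the difference was not tested.

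Lambda constant genes separated the lines. In RPMI8226, IGLC2 had RPKM values of 11846 and 12132 in MONO, 7604 and 8627 in TSW and 12000 and 11150 in CO, and in MM.1S it stood at 42.3, 10.7 and 28.5, at 28.7, 20.8 and 20.9, and at 9.12, 10.4 and 9.95. In MM.1S, IGLL5 had a higher mean RPKM (1849) than any lambda constant gene. Its exons contain all 320 bases of IGLC1 and all 38 of IGLJ1 in the annotation. Whether reads of IGLL5 fell on these shared bases was not tested. IGLC1 itself was listed at 0 in every library of both lines. IGLL5 had 0 to 57 reads per library in RPMI8226.

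The constant exons are shown because their reads are separated by few bases. The stretches lie on the plus strand of GRCh38 in chromosome 22, at chr22:22900976-22901095 for IGLC2, chr22:22906342-22906461 for IGLC3, chr22:22895375-22895494 for IGLC1 and chr22:22922594-22922713 for IGLC7. Capitals in IGLC2 mark positions where any of the others differs, and capitals in the others mark bases that differ from IGLC2.
IGLC2: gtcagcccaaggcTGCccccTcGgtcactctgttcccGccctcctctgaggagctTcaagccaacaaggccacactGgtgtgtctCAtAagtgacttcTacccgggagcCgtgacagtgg
IGLC3: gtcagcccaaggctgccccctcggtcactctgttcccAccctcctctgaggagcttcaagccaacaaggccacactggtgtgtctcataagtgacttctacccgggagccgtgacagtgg
IGLC1: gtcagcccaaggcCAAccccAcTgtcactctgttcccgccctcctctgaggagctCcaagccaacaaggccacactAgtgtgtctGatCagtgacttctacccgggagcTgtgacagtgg
IGLC7: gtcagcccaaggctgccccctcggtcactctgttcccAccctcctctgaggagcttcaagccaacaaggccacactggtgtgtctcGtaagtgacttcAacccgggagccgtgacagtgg
Over 317 aligned bases IGLC3 differed from IGLC2 at 3, IGLC7 at 13 and IGLC1 at 15, so the split between IGLC2 and IGLC3 is uncertain.

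IGLL5 fell strongly in MM.1S. Its RPKM values were 3608, 3474 and 2078 in MONO, 1483, 1371 and 1243 in TSW and 1153, 1178 and 1049 in CO. The 3 conditions did not overlap. The log2 fold change was -1.12 (SE 0.201) in TSW and -1.40 (SE 0.201) in CO, with Benjamini-Hochberg adjusted p-values of 0.00235 and 0.000572 by limma. Without the second MONO library the values were -1.01 and -1.28, still called. IGLL1, which encodes the lambda-like part of the surrogate light chain of precursor B cells, fell from 7.28, 6.09 and 7.55 RPKM in MONO to 4.14, 3.94 and 3.21 in TSW and 1.92, 3.97 and 2.30 in CO. Its log2 fold changes were -0.74 and -1.13 (limma, Benjamini-Hochberg adjusted p = 0.0114 and 0.00106), and without the third TSW library the TSW value was -0.66 with an adjusted p of 0.0533. IGLL1 is 96.5% identical to IGLL3P.

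IGLC7 moved in opposite directions in the 2 lines. In MM.1S it had RPKM values of 34.0, 17.9 and 15.5 in MONO, 13.8, 12.3 and 9.76 in TSW and 11.6, 11.2 and 9.95 in CO. RPMI8226 had 85.6 and 82.9 in MONO, 126.4 and 138.0 in TSW and 97.9 and 107.1 in CO. It was called lower in MM.1S TSW (-0.79) and CO (-0.90) and higher in RPMI8226 TSW (0.64) by limma. In MM.1S the TSW call was lost without the first MONO (-0.46), the second TSW (-0.81) or the third TSW library (-0.66), and the CO call without the first MONO (-0.57) or the third CO library (-0.84). The RPMI8226 call was lost without the second TSW library (0.58). IGLC7 is 96.2% identical to IGLC3 and 95.9% to IGLC2, both far more abundant in RPMI8226, so its values there are uncertain. The difference between the lines was not tested.

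IGLC3 in RPMI8226 had RPKM values of 1945 and 2101 in MONO, 2901 and 3351 in TSW and 1510 and 1780 in CO. TSW libraries were highest where those of IGLC2 were lowest. IGLC3 rose in TSW (0.62, limma with Benjamini-Hochberg adjusted p = 0.000239) and was lower in CO than in TSW (-0.93, adjusted p = 0.000227), whereas IGLC2 reached -0.57 and 0.51 and was not called. The IGLC3 call against MONO was lost without the first MONO (0.57) or the second TSW library (0.52). In MM.1S the IGLC2 value in CO was -1.19 (limma, Benjamini-Hochberg adjusted p = 0.0299). That call ended without the first (-0.78) or the third MONO library (-1.06) and without the first (-1.14), the second (-1.23) or the third CO library (-1.20), and stood at -1.73 without the second MONO library. In CO against TSW the MM.1S value of IGLC2 was -1.16, called only without the second MONO library (limma adjusted p = 0.00777). Against MONO, IGLC2 in TSW was at -0.02, and at -0.56 without that library, not called in either case.

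IGLC5, annotated as a pseudogene of the constant cluster, rose in RPMI8226 TSW from 0.778 and 1.09 to 6.98 and 9.39 RPKM and stood at 0.992 and 1.38 in CO. Its log2 fold changes were 2.24 in TSW against MONO and -2.06 in CO against TSW (limma, Benjamini-Hochberg adjusted p = 5.21e-07 and 1.50e-05). In MM.1S it ranged from 21.7 to 216.0 without a call. The joining segment IGLJ3 was called in all 3 RPMI8226 comparisons from 0 to 8 reads per library, and a pseudocount of 0.1 ended its call in CO against MONO. IGLJ3 is 97.1% identical to IGLJ2.

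The most abundant lambda V genes of both lines belonged to the IGLV2 family. Of these, IGLV2-5, IGLV2-28 and IGLV2-34 are annotated as pseudogenes, although IGLV2-34 ranked high in both lines. In MM.1S the RPKM values of the family summed to 18420, 18548 and 16646 in MONO, 12372, 11799 and 10706 in TSW and 9201, 9963 and 8244 in CO. The ranges of the 3 conditions did not overlap, also when the second MONO library was set aside. In RPMI8226 the sums were 13695 and 13740 in MONO, 12062 and 13702 in TSW and 12336 and 12233 in CO, where the first TSW library was lowest and the second lay between the MONO libraries, so TSW overlapped with MONO and with CO. Both CO libraries were below both MONO libraries. The sum is less exposed than a single segment to reads divided among near-identical copies, and it was not tested.

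IGLV2-14, the most abundant segment, had RPKM values of 9587, 5295 and 9010 in MONO of MM.1S, 6640, 6356 and 5897 in TSW and 4889, 5368 and 4454 in CO. The second MONO library fell among the TSW and CO libraries, and the segment was not called (log2 fold changes of -0.29 and -0.66 with limma adjusted p-values of 0.374 and 0.0542 by Benjamini-Hochberg). Without that library the IGLV2-14 values were -0.56, not called, and -0.93, called (limma adjusted p = 0.0483 and 0.00571). IGLV2-23 showed the reverse in that library, with 3705, 7758 and 3051 in MONO, 2217, 2126 and 1867 in TSW and 1820, 1869 and 1557 in CO. All its MONO values were above the rest. It fell by 1.10 in TSW (limma, Benjamini-Hochberg adjusted p = 0.0166) and by 1.35 in CO (adjusted p = 0.00578). Without the second MONO library these values were -0.70 and -0.95, both called. The TSW call was lost without the second TSW library (-1.13, limma adjusted p = 0.0519) and without the third TSW library (-1.03, adjusted p = 0.0664).

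Within the family, IGLV2-14 made up 52.0%, 28.5% and 54.1% of the summed RPKM in the MONO libraries of MM.1S and 53.1% to 55.1% in TSW and CO. IGLV2-23 made up 20.1%, 41.8% and 18.3% in MONO and 17.4% to 19.8% in TSW and CO. So the composition was alike in 8 of the 9 MM.1S libraries and differed in the second MONO library, one of those that stood apart. That library also held the highest values of IGLV2-8 (898.4, against 58.9 to 133.3 in the others), IGLV2-18 (493.6, against 17.6 to 35.4) and IGLV2-5 (281.9, against 2.95 to 8.73).

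Other lambda V genes of MM.1S fell as well. IGLV2-11 had RPKM values of 1604, 1820 and 1341 in MONO, 1134, 1006 and 889.0 in TSW and 740.5, 824.3 and 647.1 in CO, with no overlap among the conditions. It fell by 0.65 in TSW and by 1.10 in CO (limma, Benjamini-Hochberg adjusted p = 0.0116 and 0.000522), and the TSW call was lost without the second MONO library (-0.55) or the third TSW library (-0.56). IGLV3-9, at 1.14 to 5.68 RPKM and 6 to 37 reads, fell by 0.61 and 1.11, and its TSW call was lost without the second (-0.54) or the third MONO (-0.56), the first (-0.66) or second TSW (-0.43) or the third CO library (limma adjusted p = 0.0583).

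In CO alone of the MM.1S comparisons with MONO, limma called IGLV2-8 (-1.90), IGLV2-28 (-0.67) and IGLV2-34 (-0.75). IGLV2-34 had 2654, 1549 and 2393 RPKM in MONO and 1294, 1410 and 1139 in CO, and IGLV2-28 had 698.1, 448.2 and 693.9 in MONO and 363.9, 405.6 and 364.6 in CO. MONO libraries lay above CO libraries in both. Without the third CO library the values of IGLV2-34 and IGLV2-28 were -0.66 and -0.64 and no longer called, and IGLV2-28 also lost its call without the first (-0.56) or the third MONO library (-0.57). The IGLV2-8 call was lost without any single CO library (-1.98, -1.85 and -1.86) and without the second or the third TSW library, while without the second MONO library it was -0.94 and called. The difference between TSW and CO was not called for any of the 3. IGLV6-57, outside the family, stayed between 20.2 and 30.4 RPKM without a call.

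RPMI8226 showed a change of composition within the family in TSW. IGLV2-23 had RPKM values of 828.9 and 990.6 in MONO, 5574 and 6440 in TSW and 680.2 and 706.6 in CO. IGLV2-14 had 6348 and 6243 in MONO, 3556 and 4043 in TSW and 5085 and 5486 in CO. IGLV2-34 had 3141 and 3158 in MONO, 1005 and 998.4 in TSW and 3238 and 2895 in CO. Both TSW libraries were high in IGLV2-23 and low in IGLV2-14 and IGLV2-34, without overlap with MONO or CO. IGLV2-11 was also high in TSW, with 427.1 and 458.6 against 137.2 and 144.8 in MONO and 95.7 and 115.3 in CO. IGLV2-23 made up 46.2% and 47.0% of the family in TSW against 6.05% and 7.21% in MONO and 5.51% and 5.78% in CO, while IGLV2-14 made up 29.5% in both TSW libraries against 45.4% and 46.3% in MONO and 41.2% and 44.8% in CO.

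Against MONO, IGLV2-23 rose in TSW by a log2 fold change of 2.72 (SE 0.0970, limma with Benjamini-Hochberg adjusted p = 7.27e-09) and IGLV2-11 by 1.64 (adjusted p = 1.27e-07). Lower in TSW were IGLV2-34 (-1.65), IGLV2-8 (-1.25), IGLV2-28 (-0.97), IGLV2-18 (-0.80) and IGLV2-14 (-0.73). In CO against TSW the signs were opposite, with -3.11 for IGLV2-23, -2.06 for IGLV2-11, 1.61 for IGLV2-34, 1.47 for IGLV2-8 and 0.92 for IGLV2-28. Both comparisons use the TSW libraries that stood apart, which resembled the second MONO library of MM.1S in a high RPS14P3 level and in several family shares. Compared with MONO libraries of the same line, IGLV2-23 and IGLV2-11 had higher shares in these 3 libraries, and IGLV2-14, IGLV2-34 and IGLV2-28 had lower ones. IGLV2-34, for example, was at 8.35% in that MM.1S library against 14.4% in each of the other MONO libraries, and at a mean of 7.81% in RPMI8226 TSW against 23.0% in MONO. They were unlike in IGLV2-8 and IGLV2-18, which made up 4.84% and 2.66% of the family in that MM.1S library, its highest shares, but in RPMI8226 TSW a mean of 1.15% and 0.784% against 2.58% and 1.28% in MONO. In CO against MONO, 6 of these 7 segments were not called, and IGLV2-18 was (-0.71), a call lost without the first CO library (-0.41).

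**Figure D4:**
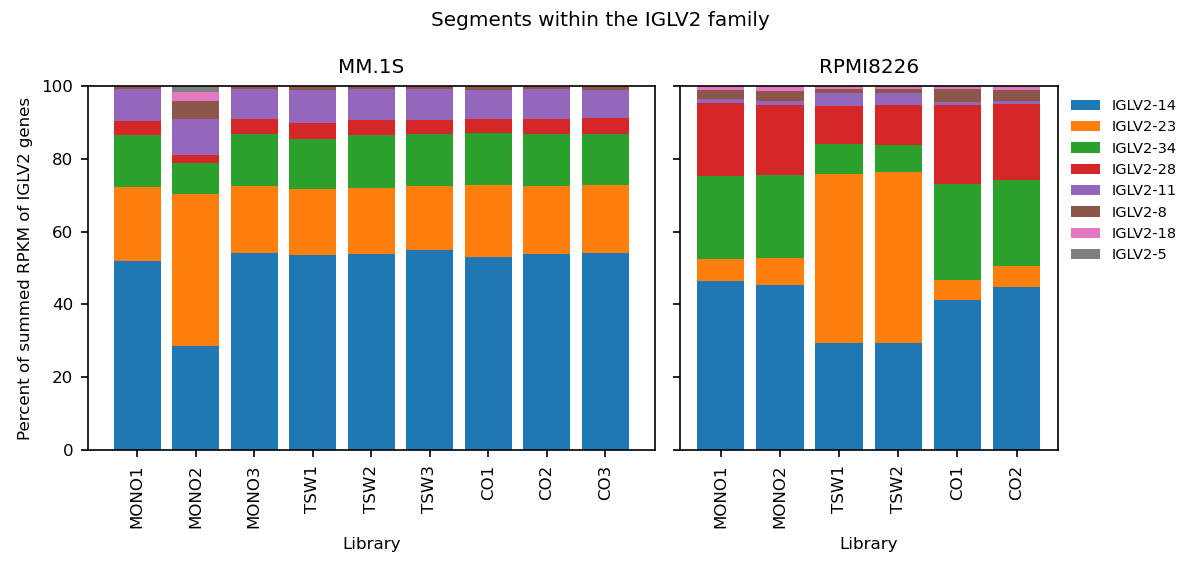
Stacked bars of the percent of the summed RPKM of IGLV2 genes that each segment held in each library. IGLV2-23 held 41.8% in the second MONO library of MM.1S and 46.2% and 47.0% in the TSW libraries of RPMI8226, and at most 20.1% in every other library.

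IGLV6-57 behaved like the kappa V segments in RPMI8226. Its RPKM values were 10.7 and 11.9 in MONO, 0.306 and 0.632 in TSW and 1.22 and 1.05 in CO, from 47 and 62 reads in MONO and 2 to 7 elsewhere. MONO lay far above the other conditions in TSW (-3.07) and in CO (-2.52), both called by limma (Benjamini-Hochberg adjusted p = 1.83e-08 and 4.90e-08). IGLV6-57 reached the level for testing through its MONO values, and with no filter it was called as well (adjusted p = 8.90e-05 and 9.76e-05). It has no near-identical copy in the set.

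JCHAIN moved in opposite directions in the 2 lines. In MM.1S its RPKM values were 4102, 3402 and 3754 in MONO, 2134, 1966 and 2125 in TSW and 2020, 2010 and 1924 in CO. In RPMI8226 they were 1466 and 1366 in MONO, 2585 and 2353 in TSW and 2927 and 2815 in CO. Every MONO library of MM.1S lay above its other libraries, and every MONO library of RPMI8226 lay below its other libraries. The log2 fold changes in MM.1S were -0.85 (SE 0.138, limma with Benjamini-Hochberg adjusted p = 0.00120) in TSW and -0.91 (SE 0.138, adjusted p = 0.000764) in CO, or -0.92 and -0.98 without the second MONO library. In RPMI8226 they were 0.80 (SE 0.0745, limma with Benjamini-Hochberg adjusted p = 5.95e-06) and 1.02 (SE 0.0745, adjusted p = 7.21e-07). CO and TSW did not differ by a call in either line. JCHAIN has no near-identical copy among the members, and the difference between the lines was not tested.

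MZB1 was called in RPMI8226 only, and that difference between the lines was not tested either. Its RPKM values there were 523.1 and 536.1 in MONO, 1078 and 1133 in TSW and 888.8 and 910.7 in CO, with no overlap among the conditions. The log2 fold change was 1.06 (SE 0.0636, limma with Benjamini-Hochberg adjusted p = 2.58e-07) in TSW and 0.76 (SE 0.0636, adjusted p = 1.88e-06) in CO. MM.1S had 682.1, 479.9 and 402.0 in MONO, 508.7, 534.0 and 459.7 in TSW and 432.3, 489.3 and 417.0 in CO. These overlapped, and the log2 fold changes of -0.03 and -0.19 had limma adjusted p-values of 0.927 and 0.412 by Benjamini-Hochberg. Both values changed sign without the first MONO library (0.186 and 0.0194).

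**Figure D5:**
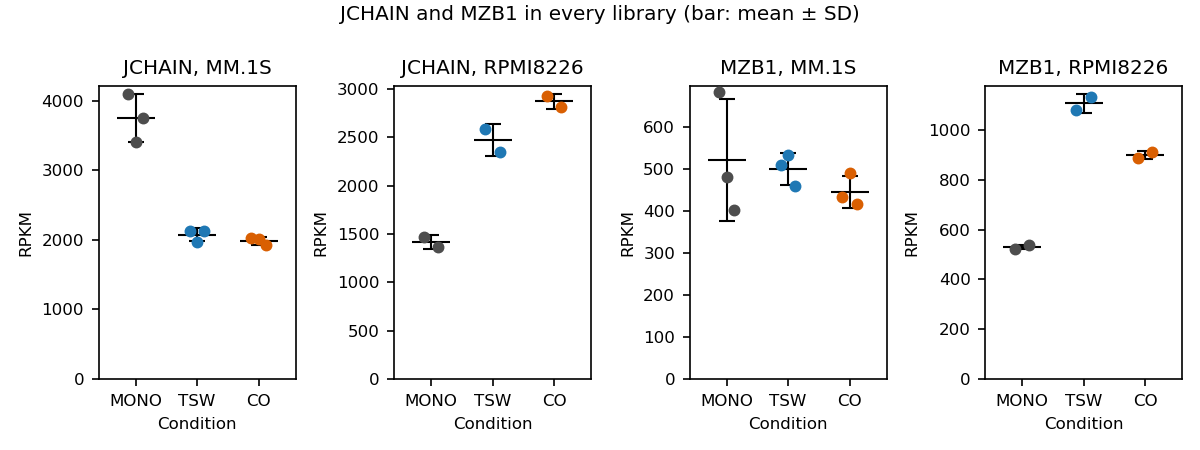
RPKM of JCHAIN and MZB1 in each library (points) by condition, with mean and SD as bars. JCHAIN was highest in MONO in MM.1S (3402 to 4102) and lowest in MONO in RPMI8226 (1366 and 1466), and MZB1 separated by condition in RPMI8226.

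The promoters of both genes, the 250 bases before each start site in the RefSeq annotation of GRCh38.p14, are shown because JCHAIN and MZB1 rose together in RPMI8226 and not in MM.1S. They were searched on both strands for the octamer ATGCAAAT of immunoglobulin promoters, the ACGT-core motif ACGTGG and the E-box CAGGTG. JCHAIN lies at chr4:70666509-70666758 and MZB1 at chr5:139389914-139390163, both on the minus strand, and capitals mark matches.
JCHAIN: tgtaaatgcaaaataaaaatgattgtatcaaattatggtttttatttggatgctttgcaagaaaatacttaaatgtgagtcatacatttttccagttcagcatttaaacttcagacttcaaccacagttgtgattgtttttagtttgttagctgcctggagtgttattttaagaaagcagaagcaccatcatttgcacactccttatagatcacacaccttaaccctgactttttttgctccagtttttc
MZB1: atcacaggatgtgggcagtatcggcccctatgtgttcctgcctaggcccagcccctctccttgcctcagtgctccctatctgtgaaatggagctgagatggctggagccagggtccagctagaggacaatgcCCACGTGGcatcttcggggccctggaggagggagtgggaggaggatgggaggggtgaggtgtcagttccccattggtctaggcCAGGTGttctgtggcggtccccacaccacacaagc
JCHAIN held none of the 3 motifs. MZB1 held ACGTGG on both strands in overlapping positions and CAGGTG once. Among 35116 promoters of this length, 1.63% held ATGCAAAT, 8.37% ACGTGG and 17.5% CAGGTG on either strand. A match is a description of letters and not a binding site.

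Factors that control immunoglobulin transcription were examined as a list of 16 genes. In MM.1S, 13 were tested, and 5 rose and 2 fell in TSW as in CO, with medians of the log2 fold change of 0.40 and 0.47, where 6.48% and 7.13% of all genes were called higher and 4.16% and 4.65% lower. In RPMI8226, 12 were tested, with 6 higher and 2 lower in TSW and 8 higher and 2 lower in CO (medians 0.66 and 0.90). Of all genes there, 14.5% and 16.4% were called higher and 17.9% and 22.9% lower. Limma called 0 of them in CO against TSW in either line. Its unadjusted p was under 0.05 for 2 in MM.1S and 5 in RPMI8226. Of all genes, 450 of 10153 in MM.1S and 4169 of 10319 in RPMI8226 were under that value. XBP1, which drives the secretory program of plasma cells, rose from 438.2, 421.6 and 404.0 RPKM in MONO to between 665.4 and 794.7 in TSW and CO of MM.1S, and from 191.6 and 190.7 to between 398.0 and 465.7 in RPMI8226. Its log2 fold changes in TSW and CO were 0.87 and 0.77 in MM.1S and 1.24 and 1.08 in RPMI8226 (limma, all called after Benjamini-Hochberg adjustment).

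PRDM1, the repressor that ends the B-cell program, rose by 0.75 and 0.68 in MM.1S and by 0.94 and 1.12 in RPMI8226, and its MM.1S call in CO was lost without the first MONO library (0.53). POU2AF1, the coactivator of octamer-binding factors, rose by 0.73 in MM.1S TSW and by 1.08 and 1.01 in RPMI8226, and reached 0.43 in MM.1S CO without a call. Its partner POU2F2 was called in MM.1S CO (0.60), and that call was lost without the second (0.50) or the third MONO library (0.47) or the first CO library (0.53). BCL6, a repressor of plasma cell differentiation, rose in both lines (2.19 and 2.09 in MM.1S, 1.81 and 1.98 in RPMI8226). Its mean RPKM in MONO was 0.167 in MM.1S and 0.0870 in RPMI8226, so BCL6 reached the level for testing through TSW and CO, and all 4 calls were also made with no filter. TCF3, an E-box factor, fell in both lines.

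ID3, an inhibitor of E-box factors, fell by 1.13 and 1.36 in MM.1S and rose by 1.69 and 1.38 in RPMI8226. IRF4, a factor on which myeloma cells depend, fell by 0.94 and 0.93 in RPMI8226, and in MM.1S its values of 0.40 and 0.12 were not called. SPIB was called in RPMI8226, with 1.79 and 1.85. SPIB, with a mean RPKM of 0.186 in MONO, reached the level for testing through TSW and CO, and with no filter it was called as well (limma adjusted p = 0.000317 and 0.000203). PAX5, the B-cell identity factor silenced in plasma cells, did not reach a mean RPKM of 1 in either line. These differences between lines were not tested.

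The list of folding, assembly and export of antibody chains held 29 genes, all tested in both lines. In MM.1S, 4 rose and 1 fell in TSW, and 4 rose and 3 fell in CO (medians -0.08 and -0.09), beside 6.48% and 7.13% of all genes higher and 4.16% and 4.65% lower. In RPMI8226, 9 rose and 0 fell in TSW by limma. There, 19 had an unadjusted p under 0.05 by limma, beside 7234 of all 10319 genes. In CO, 10 rose and 1 fell (medians 0.41 in TSW and 0.33 in CO). The shares of all genes were 14.5% and 16.4% higher and 17.9% and 22.9% lower. LMAN1, a cargo receptor between endoplasmic reticulum and Golgi, rose in each of these comparisons (0.82 and 0.95 in MM.1S, 0.81 and 1.08 in RPMI8226), as did SEL1L of the degradation machinery (0.84 and 0.62, 0.86 and 1.04), whose MM.1S TSW value was 0.56 without the first MONO library and not called. DNAJB9, a cochaperone of the endoplasmic reticulum, rose in RPMI8226 (1.07 and 1.61). TENT5C, a poly(A) polymerase that stabilizes immunoglobulin RNA, rose in both lines (0.75 and 0.69 in MM.1S, 1.02 in both conditions of RPMI8226), and its MM.1S CO value was 0.57 and not called without the first MONO library.

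In the list of 10 receptor partners and surrogate light chain genes, 4 were tested in MM.1S, where the kinase SYK fell in both conditions (-0.63 in each). Of all genes in MM.1S, 6.48% (TSW) and 7.13% (CO) were called higher and 4.16% and 4.65% lower. Of 5 tested in RPMI8226, the adaptor BLNK (0.80 and 0.96) and VPREB3 (0.83 and 0.71) rose, and the VPREB3 call in CO was lost without the second CO library (0.58). Of all genes in that line, 14.5% (TSW) and 16.4% (CO) were called higher and 17.9% and 22.9% lower. VPREB3 had a mean RPKM of 0.930 in MONO and reached the level for testing through TSW and CO, and with no filter it was called as well (limma adjusted p = 0.00330 and 0.00489). MS4A1 was at 0 in all 15 libraries. Of the 5 genes for rearrangement, hypermutation and class switch, UNG, a DNA repair enzyme that also acts outside antibody genes, was the 1 tested. UNG fell by 1.02 and 1.14 in MM.1S and by 1.95 and 2.66 in RPMI8226. In RPMI8226 it was also lower in CO than in TSW (-0.71), a call lost without the first CO library (-0.56).

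All 7 marker genes of plasma cells had a value above 0 in every library of both lines. In RPMI8226, 6 of them had an RPKM of at least 1 in each library. In MM.1S all 7 were tested, and 2 rose and 1 fell in each condition against MONO. Of all genes there, 6.48% (TSW) and 7.13% (CO) rose and 4.16% and 4.65% fell. In RPMI8226 3 rose and 2 fell of 6 tested in each condition, beside 14.5% and 16.4% of all genes higher and 17.9% and 22.9% lower. XBP1 and PRDM1 were among the markers that rose in both lines. CD38, the surface enzyme used for sorting, rose in RPMI8226 by 1.46 in TSW and 1.67 in CO. TNFRSF17, the receptor for plasma cell survival factors, was the gene that fell in MM.1S (-1.80 and -2.14), and it also fell in RPMI8226 (-3.50 and -3.83). IRF4 was the other marker that fell in RPMI8226.

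Stromal markers moved with CO. Several of them were at 0 outside CO and passed the level for testing through their CO values, so the counts describe their presence in CO and are no independent test. Of 20 genes, 11 were tested in MM.1S, and 10 rose in CO against MONO and 11 against TSW, where 7.13% and 0.374% of all genes were called higher. In RPMI8226, where these shares were 16.4% and 1.9%, 7 of 8 tested rose and 1, FN1, fell in CO against MONO, 6 rose against TSW, and FN1 fell in TSW against MONO. The summed RPKM of the 20 genes was 7.22 to 9.81 in MONO of MM.1S, 6.70 to 7.55 in TSW and 142.1, 157.3 and 131.0 in CO, where the collagenase MMP1 was the most abundant at 41.0 to 46.9. RPMI8226 itself had FN1 at 3990 and 4310 in MONO, so its sum is given without FN1, and it was 4.51 and 4.30 in MONO, 4.31 and 4.37 in TSW and 84.3 and 120.1 in CO. POSTN was at 0 in all libraries, and COL1A2, COL3A1, MMP1 and TFPI2 were at 0 in every MONO and TSW library. The part of these transcripts in the CO results was not tested.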

How the data were processed

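Reads were aligned with Subread and counted per RefSeq gene on hg38 with featureCounts, according to the processing notes of the submitters. The tables deposited by the authors hold log2 values, log2(RPKM + 1) plus a constant of 0.0001, for 20468 genes and 15 libraries. RPKM was recovered by removing that constant and the logarithm. Reads per gene were recovered with the shortest gene length at which all values of the gene were whole within 0.05 of a read. Such a length was found for all 17662 genes with a value above 0, so whole values are no independent check. For genes with few reads the length, and with it the read count, can be too low. IGKV1-17 got 117 bases against 351 in annotated exons, and IGHM 371 against 1609. Depth was 9008977 to 19050772 reads on genes. The filter kept genes whose mean RPKM reached 1, and each line was tested with limma 3.58.1 (R 4.3.3) on log2(RPKM + 1) with a trend, all 3 conditions in 1 model, at a Benjamini-Hochberg adjusted p of 0.05 and a fold change of 1.5. The written plan named this model and it was followed. Libraries of equal number were not treated as pairs.

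Members and gene lists were chosen with earlier results of these data known. Genes were named in the text when called in a comparison, or when abundant, and from each list up to the 5 largest called changes per comparison were considered along with IRF4, PRDM1, XBP1, POU2AF1, POU2F2 and PAX5. Exon sequences came from GENCODE v44 and the hg38 genome, and promoters of 250 bases from RefSeq on GRCh38.p14, where JCHAIN, MZB1 and IGLL1 could be matched. Copies were near-identical at 95% identity over 80% of the shorter exons, by BLAST 2.17.0, and alignments were made with MAFFT 7.526. The motifs ATGCAAAT, ACGTGG and CAGGTG were searched on both strands. Python 3.11.15, pandas 2.3.3, pysam 0.24.0 and matplotlib 3.10.9 were used for tables, sequences and figures. The fitting code was also run on data simulated from the recovered reads with known fold changes. Alternatives to the filter, added constant, scaling, model and libraries are reported with the sensitivity results, and 2 of them were added after the data had been seen.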

Additional observations from a re-analysis of the deposited data

Results flagged for a closer look

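Several genes changed in opposite directions in MM.1S and RPMI8226, given here as log2 fold changes on the log2(RPKM + 1) scale. None of these differences between the lines was tested. Against MONO, JCHAIN had -0.85 in TSW and -0.91 in CO of MM.1S, and 0.80 and 1.02 in RPMI8226. ID3 had -1.13 and -1.36 in MM.1S and 1.69 and 1.38 in RPMI8226. ERP44, a thiol chaperone of the secretory pathway, had -0.61 and -0.63 in MM.1S and 0.53 and 0.58 in RPMI8226, the latter pair not called. Its MM.1S calls ended in TSW without the first MONO (-0.54), first TSW (-0.57) or second TSW library (-0.58), and in CO without the first MONO (-0.56) or second CO library (-0.57). IGLC7 had -0.79 and -0.90 in MM.1S and 0.64 and 0.28 in RPMI8226, the last not called, and it has the near-identical copies IGLC2 and IGLC3.

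In TSW, IGLV2-23 had -1.10 in MM.1S and 2.72 in RPMI8226, IGLV2-11 had -0.65 and 1.64, and IRF4 had 0.40 (not called) and -0.94. The RPMI8226 values of these TSW comparisons include both libraries that stood apart.

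In CO against TSW, IGLV2-34 had -0.37 in MM.1S and 1.61 in RPMI8226, IGLV2-28 had -0.36 and 0.92, IGLV2-14 had -0.36 and 0.48, and IGLC2 had -1.16 and 0.51. Of these 8 values only the RPMI8226 values of IGLV2-34 and IGLV2-28 were called. The RPMI8226 values again include both TSW libraries that stood apart. In CO against MONO of RPMI8226 the same genes, in this order, had -0.04, -0.05, -0.25 and -0.05, none of them called.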

How the results depend on the processing

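The number of members called was recomputed under other settings. Leaving out single libraries gave 7 to 14 calls for MM.1S TSW against MONO (11 with all), 10 to 19 for CO against MONO (14 with all) and 0 to 1 for CO against TSW (0 with all). In RPMI8226 it gave 17 to 18 (18 with all), 8 to 9 (9 with all) and 7 to 8 (7 with all). The lowest MM.1S TSW count of 7 and the single call in CO against TSW came without the third TSW library, and the cause was not tested.

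A mean RPKM of at least 5 left 6 calls in MM.1S TSW, 9 in MM.1S CO, 11 in RPMI8226 TSW and 4 in RPMI8226 CO against MONO, because fewer members were tested. Without a fold change threshold, RPMI8226 had 14 calls of 18 in CO against MONO and 11 in CO against TSW, where 7422 and 2849 of all 10319 genes were called. Leaving out members with a near-identical copy, an alternative chosen after seeing the data, left 5 and 7 calls in MM.1S TSW and CO, and 8, 5 and 3 in the RPMI8226 comparisons, because fewer members were counted. Adding the genes found by gene ID, chosen at the same time, moved no count past the limit set.

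A replicate block changed no count (11, 14 and 0 in MM.1S, and 18, 9 and 7 in RPMI8226). For pairing, correlations between equally numbered libraries after removal of condition means ranged from -0.380 to 0.286 in MM.1S and from 0.164 to 0.271 in RPMI8226. The MM.1S values had mixed signs, while the RPMI8226 values were all positive and rested on 2 libraries per condition. No label calls the libraries pairs, and the numbers were not used as pairs.

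Fold changes of part of the named genes were also compared across settings. Each pair of a gene and a setting was counted as the same when sign and call were kept, and as weaker when a call was lost. In MM.1S, 26 pairs were weaker and 464 the same in TSW against MONO, and 36 and 535 in CO against MONO. Named genes outside this tally changed as well without the second MONO library. Among them, IGLV2-14 in CO gained a call (-0.93) and IGHG1 in TSW turned its sign (-0.09). In RPMI8226, 14 were weaker and 603 the same in TSW, 10 and 422 in CO, and in CO against TSW 3 were weaker, 1 stronger and 216 the same.

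MZB1 in MM.1S changed sign in 4 settings. In TSW against MONO it was 0.0342 with quantile normalization, 0.186 without the first MONO library and 0.0350 without the third TSW library, and in CO against MONO 0.0194 without the first MONO library. Leaving out the third MONO library gave -0.19 for MZB1 in TSW and -0.36 in CO. None of these was called.

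The libraries measure 2 established lines, with 3 or 2 libraries per condition. Near-identical copies share reads in ways the deposited tables do not show, and raw reads were not used. Symbols in lower or mixed case kept 18 genes out of the 300. RPMI8226 has no TSW library free of the feature that set 3 libraries apart.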
